A study of Mus musculus with 12 samples.

Results

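The costimulatory TNF receptor family is described here through 6 genes that encode TNF receptors of T cells: Tnfrsf18 (GITR), Tnfrsf4 (OX40), Tnfrsf9 (4-1BB), Tnfrsf1b (TNFR2), Cd27 and Tnfrsf25 (DR3). They were chosen by symbol from the 24417 genes listed in each table, all 6 were found, and all 6 passed the filter on low values in every comparison. Another 22 listed genes belong to the same receptor superfamily. The samples were Foxp3-expressing regulatory T cells (Tregs) of mice aged 6.8 weeks from the diabetes-prone NOD strain. The mice were retrogenic, so their T cells carried receptor genes introduced into bone marrow. Per the series' design, these mice express a pair of insulin-specific T cell receptors (TCRs), 4-8 with high and 12-4.4m1 with low affinity. The 4 groups, with 3 RNA-seq libraries each and 12 in all, were islet 4-8, islet 12-4.4m1, spleen 4-8 and spleen 12-4.4m1 Tregs. Nothing in the labels ties a library to a mouse of its own, so each p-value measures spread between libraries, which may be technical. Each affinity is represented by a single TCR, and affinity cannot be told apart from other properties of the 2 TCRs.

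Receptors of this family are bound by trimeric ligands of the TNF superfamily on antigen-presenting and other cells, and most of them recruit TRAF adaptors that switch on NF-kB and raise the expression of survival genes. Tregs carry several of them at rest, and TCR stimulation raises their surface levels. In Tregs, signals through GITR, OX40 and TNFR2 are known for supporting their differentiation, number or persistence, 4-1BB and CD27 for costimulation, and DR3 for Treg expansion after its ligand TL1A is given. DR3 differs from the other members in carrying a death domain, through which it recruits TRADD.

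On the mouse build GRCm38 (GENCODE vM21), 5 of the 6 genes lie on chromosome 4 within 10.8 Mb. Of the 22 other receptor genes, 2 are on that chromosome, both within the same span. They are Tnfrsf8 (145267137 to 145315164) and Tnfrsf14 (154921933 to 154928563). The positions of the 5 members are 145213463 to 145246870 for Tnfrsf1b, 150914562 to 150946102 for Tnfrsf9, 152115934 to 152120119 for Tnfrsf25, 156013843 to 156016612 for Tnfrsf4 and 156026164 to 156028895 for Tnfrsf18. Tnfrsf4 and Tnfrsf18 are neighbours, with 9551 bases between them. Cd27 lies on chromosome 6 at 125232622 to 125237010. All 6 are annotated as protein-coding. The sources used here do not say whether reads were counted by strand, and 3 members share bases with a gene on the opposite strand: Tnfrsf9 with Camta1, Cd27 with Vamp1, and Tnfrsf18 with the antisense gene Gm16008. The authors' FPKM was 5.0 to 8.08 for Camta1 and 8.50 to 22.8 for Vamp1, far below the receptors they overlap. Vamp1 was at 19.0 in islets and 9.33 in spleen in 4-8, and at 22.8 and 8.50 in 12-4.4m1. No level was at hand for Gm16008, which spans all 2732 bases of Tnfrsf18. The part of reads from these genes in the receptor values was not tested.

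Promoter windows of the members that changed between groups are shown because these members are the ones the comparisons turn on. Each runs from 250 bases before to 50 bases after an annotated transcript start (RefSeq, GRCm38.p6), 5′ to 3′ on the strand of the gene. Capitals mark letters that match the NF-kB (kB) consensus or the AP-1 motif TGANTCA, both searched on both strands. The downstream window of Tnfrsf25, chr4:152116093-152116392, held no match and is not printed.
Tnfrsf9, downstream start, chr4:150927749-150928048, plus strand: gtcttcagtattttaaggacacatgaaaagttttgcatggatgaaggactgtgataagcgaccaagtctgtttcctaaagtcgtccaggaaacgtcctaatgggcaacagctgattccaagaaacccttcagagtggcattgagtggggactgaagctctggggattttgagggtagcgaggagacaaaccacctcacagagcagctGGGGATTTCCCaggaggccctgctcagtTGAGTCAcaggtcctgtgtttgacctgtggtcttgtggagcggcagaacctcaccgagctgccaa
Tnfrsf9, upstream start, chr4:150919905-150920204, plus strand: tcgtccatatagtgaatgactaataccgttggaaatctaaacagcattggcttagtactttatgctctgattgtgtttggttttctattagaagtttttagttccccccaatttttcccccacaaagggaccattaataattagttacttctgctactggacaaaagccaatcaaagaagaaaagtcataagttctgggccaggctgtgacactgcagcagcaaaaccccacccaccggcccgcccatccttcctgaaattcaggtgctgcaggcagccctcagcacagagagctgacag
Tnfrsf1b, chr4:145246821-145247120, minus strand: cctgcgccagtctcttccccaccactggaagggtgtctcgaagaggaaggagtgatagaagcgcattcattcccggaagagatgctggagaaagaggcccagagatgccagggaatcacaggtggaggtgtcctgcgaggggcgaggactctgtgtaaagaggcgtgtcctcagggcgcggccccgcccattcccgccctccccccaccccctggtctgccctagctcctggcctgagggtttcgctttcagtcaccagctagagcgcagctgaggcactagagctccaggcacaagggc
Tnfrsf25, upstream start, chr4:152115684-152115983, plus strand: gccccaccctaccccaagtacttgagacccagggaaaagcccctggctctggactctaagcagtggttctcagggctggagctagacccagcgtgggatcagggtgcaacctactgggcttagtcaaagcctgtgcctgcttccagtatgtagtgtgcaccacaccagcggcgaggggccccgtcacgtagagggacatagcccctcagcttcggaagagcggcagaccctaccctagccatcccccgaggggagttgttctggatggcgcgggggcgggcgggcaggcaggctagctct
Cd27, chr6:125236978-125237277, minus strand: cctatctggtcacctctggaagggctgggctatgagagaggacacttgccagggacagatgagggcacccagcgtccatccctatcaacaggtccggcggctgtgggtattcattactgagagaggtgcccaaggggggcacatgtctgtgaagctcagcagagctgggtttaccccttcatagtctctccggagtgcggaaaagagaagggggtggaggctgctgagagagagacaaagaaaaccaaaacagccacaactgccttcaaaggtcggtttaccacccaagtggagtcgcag
Of the 8 windows that the table holds for the 6 members, 1 held a match. It was the downstream start of Tnfrsf9, with a pair of overlapping kB matches that begin 43 and 42 bases before the start and an AP-1 match that begins 15 bases before it. Of the 32851 windows of that table, 4.51% held a kB match, 7.81% an AP-1 match and 0.332% both. A match describes the letters of this window and no binding was measured.

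Expression was lower for Tnfrsf25 than for the other 5 receptors in every group. Levels of different genes can be set side by side as FPKM, fragments scaled by transcript length and library size. The authors gave 1 value per group and table, so the levels have no spread, and the mean of the 2 tables that hold a group is used for them. Tnfrsf18 stood highest in every group, at 1506 FPKM in islet 4-8, 1216 in islet 12-4.4m1, 1362 in spleen 4-8 and 1264 in spleen 12-4.4m1. It exceeded 98.7% or more of the genes with at least 1 FPKM in each group. Tnfrsf4 came next, at 1356, 1022, 900 and 980 FPKM in the same order of groups.

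Tnfrsf9 was at 472 FPKM in islet 4-8, 303 in islet 12-4.4m1, 201 in spleen 4-8 and 180 in spleen 12-4.4m1. Tnfrsf1b was at 254, 162, 107 and 91.0 FPKM in that order, so both were higher in the islet groups. Cd27 followed the TCR more than the tissue, at 312 FPKM in islet 4-8 and 269 in spleen 4-8, against 166 in islet 12-4.4m1 and 104 in spleen 12-4.4m1. Tnfrsf25 ran the other way: it was lowest in islet 4-8, at 10.8 FPKM, with 35.6 in islet 12-4.4m1, 62.8 in spleen 4-8 and 62.6 in spleen 12-4.4m1. It exceeded 45.2% to 45.5% of the genes with at least 1 FPKM in islet 4-8, and 86.3% to 86.5% of them in the spleen groups. The 6 receptors summed to 3910 FPKM in islet 4-8, 2905 in islet 12-4.4m1, 2900 in spleen 4-8 and 2680 in spleen 12-4.4m1. Most of each sum came from Tnfrsf18 and Tnfrsf4, with shares of 38.5% and 34.7% in islet 4-8 and 47.1% and 36.5% in spleen 12-4.4m1. Tnfrsf25 made up 0.277% of it in islet 4-8 and 2.34% in spleen 12-4.4m1.

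**Figure D1:**
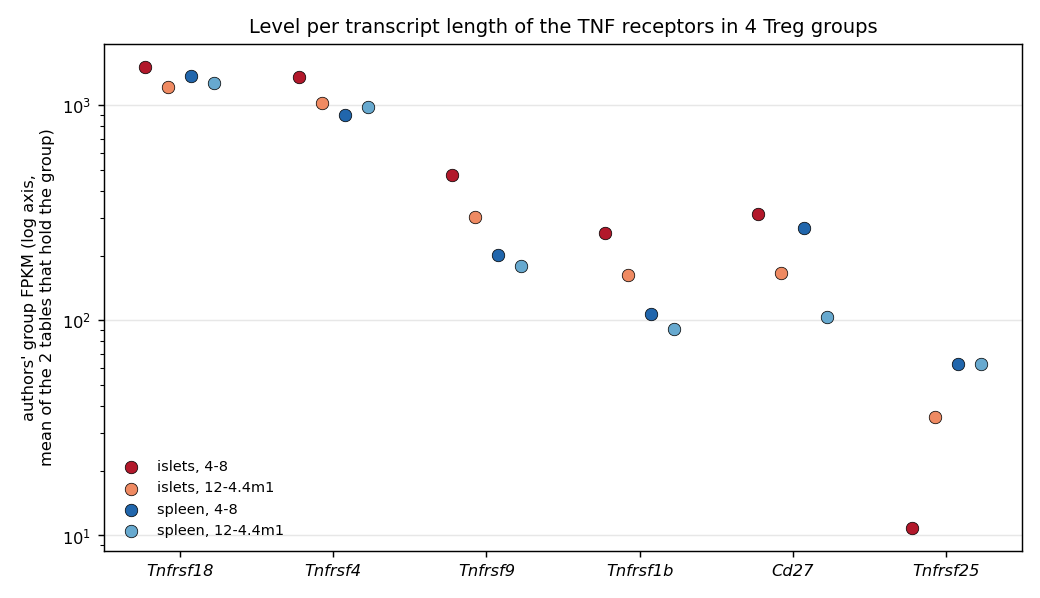
The authors' group FPKM (vertical log axis, mean of the 2 tables that hold a group) of each receptor in the 4 Treg groups, 1 point per group with no error, since the authors gave 1 value per group. Tnfrsf18 is at the top in every group, and Tnfrsf25 is lowest in islet 4-8, at 10.8 FPKM.

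The differences were tested on the authors' regularized log (rlog) values, which are on a log2 scale, per library. A table of 6 libraries was normalized for each comparison, so values are comparable within a table only. Each test is the limma moderated test of 3 against 3 libraries, 2-sided, over all genes with a mean normalized count of at least 10. An adjusted p is Benjamini-Hochberg adjusted over those genes, and a gene is called under 0.05. The total count per library is not known, and the median SE of a log2 fold change over all genes was 0.193 and 0.123 between the TCRs in islets and spleen, and 0.181 and 0.187 between the tissues in 4-8 and 12-4.4m1. The members had mean normalized counts of 179 to 1671, except Tnfrsf25 with 32.2 to 136. The rlog transform shrinks differences most at low counts. Folds are of rlog values unless FPKM is named.

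The sorted cells carried the markers of their label. All 8 Treg markers fixed for the check were at 1 FPKM or more in every group, and the Treg transcription factor Foxp3 was at 149 to 170 FPKM. Il2ra, the IL-2 receptor alpha chain, passed in none of the comparisons (adjusted p = 0.591 to 0.971), while the inhibitory receptor Ctla4 was higher in islets for 4-8 (2.03, limma adjusted p = 1.52e-07) and 12-4.4m1 (2.21, adjusted p = 2.23e-10), as was Cd4 (0.71 and 0.86). Of 10 acinar markers of the exocrine pancreas, 9 were at 1 FPKM or more in both islet groups, with a summed level of 224 to 232 FPKM in islet 4-8 and 349 to 365 in islet 12-4.4m1, against 10.2 to 13.6 over the spleen groups. The sums of 5 B cell markers found of 6 (1.13 to 9.75 FPKM), 7 myeloid markers of 8 (8.61 to 20.3) and 5 CD8 T and NK cell markers (6.38 to 32.0) were low beside Foxp3. The highest CD8 T and NK cell marker was Klrd1 in islet 4-8 (31.0 FPKM) and Cd8b1 in islet 12-4.4m1 (11.3). Of these 5 markers, 1 was tested between tissues in 4-8, and limma called it higher in islets (0.96), as 5.14% of all genes were. Between the TCRs in islets, Klrd1 differed by 0.51 (limma adjusted p = 0.359). The part of these transcripts in the receptor differences was not tested. Pax5, from the B cell list, and Itgax, from the myeloid list, were at 0 in the islet groups. Of the 7 myeloid markers, 5 were at 1 FPKM or more in islet 4-8 and 2 in islet 12-4.4m1. The highest were Cd68 in islet 4-8 (9.34) and Lyz2 in islet 12-4.4m1 (7.11). The highest B cell marker in islets was Cd79a (2.10 FPKM in islet 4-8 and 0.672 in islet 12-4.4m1). The endocrine markers summed to 5.38 to 41.2 FPKM and the endothelial and stromal ones to 3.45 to 11.2. In a list of 15 early response and heat shock genes, added with its values known, limma called 14 higher and 0 lower in islets for 4-8 (median 1.84). For 12-4.4m1 it called 14 and 0 (median 1.96). Over all genes, 5.14% were called higher and 2.84% lower in 4-8, and 4.63% and 2.18% in 12-4.4m1. Fos was at 4.24 and 4.46 and Hspa1a at 4.15 and 4.32 on the log2 scale. Beside every islet against spleen difference below, the part of the early response, heat shock and acinar transcripts was not tested. In bulk samples, fewer cells of a type and less RNA per cell cannot be told apart.

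**Figure D2:**
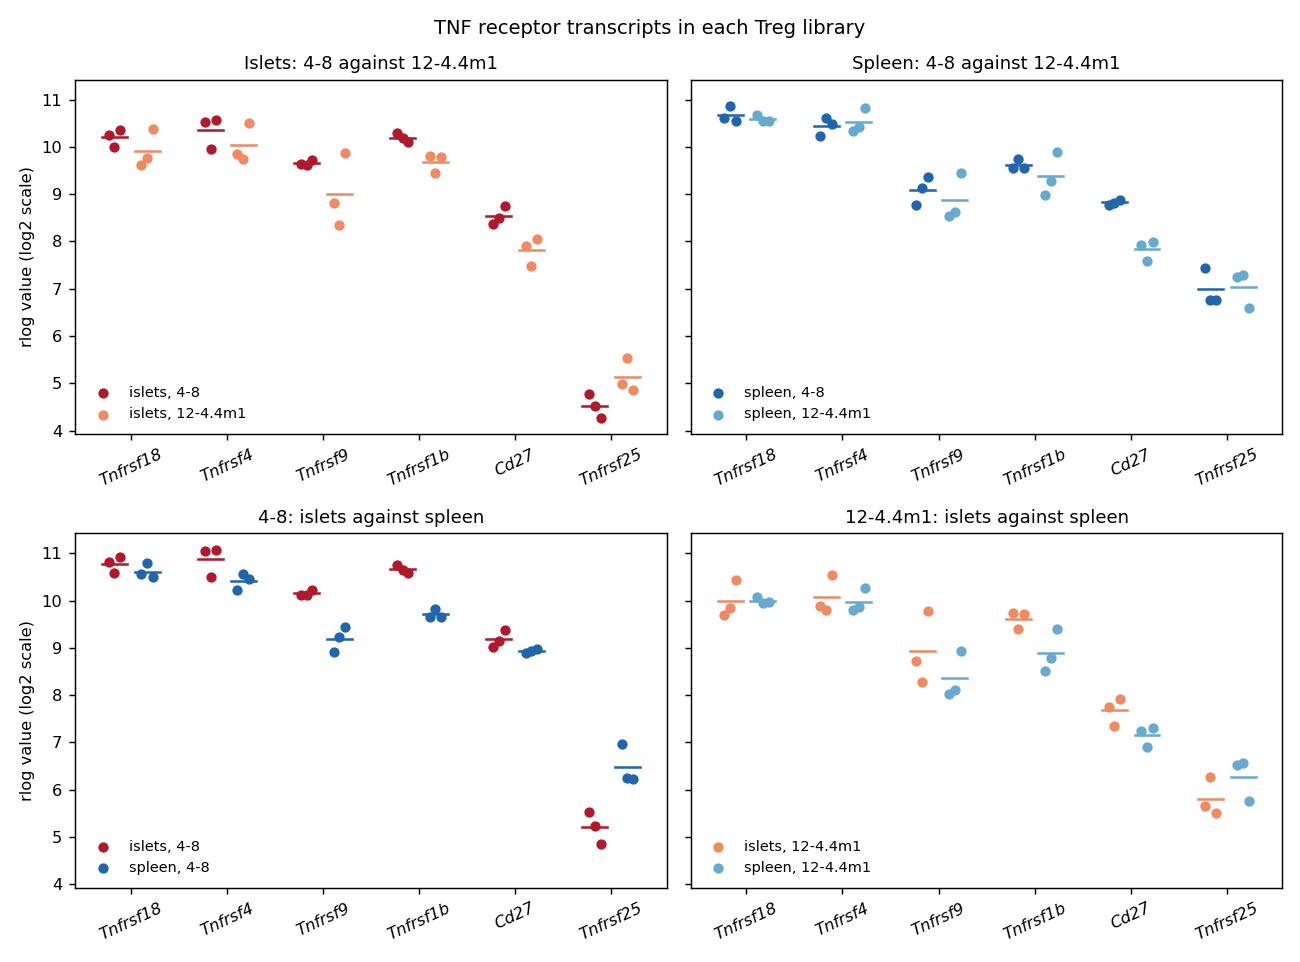
Rlog values (log2 scale) of the 6 receptors in every library, 1 panel per comparison and table, with points for libraries and a short line at each mean of 3. Cd27 separates spleen 4-8 (8.77 to 8.88) from spleen 12-4.4m1 (7.59 to 8.00), and Tnfrsf9, Tnfrsf1b and Tnfrsf25 separate islet from spleen libraries in 4-8.

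Between islets and spleen in 4-8 Tregs, which asks how Tregs in the tissue that holds insulin differ from those in a lymphoid organ, 3 of the 6 receptors changed: Tnfrsf9 and Tnfrsf1b were higher and Tnfrsf25 was lower in islets. Over all genes tested, 7.98% were called in this comparison, 5.14% as higher and 2.84% as lower. The authors' deposited DESeq2 table called the same 3 receptors, where it called 6.76% of genes, and their Cuffdiff table called these and Tnfrsf4, where it called 15.6%. The groups of libraries did not overlap for 4 of the 6, against 27.4% of all genes. The median log2 fold change of the 6 was 0.36, against -0.01 over all genes.

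Tnfrsf9, an inducible receptor that marks recently stimulated T cells, had rlog values of 10.13, 10.11 and 10.21 in islet 4-8 libraries, against 8.91, 9.24 and 9.44 in spleen 4-8. The islet libraries lay close together and above every spleen library. The means were 10.15 ± 0.06 and 9.19 ± 0.27 (SD, n = 3 each), a 1.94-fold difference (log2 fold change 0.95 ± 0.15 SE, limma adjusted p = 0.000476). Tnfrsf1b, whose product binds membrane-bound TNF and lymphotoxin alpha, was at 10.75, 10.65 and 10.58 in islet 4-8, against 9.66, 9.83 and 9.65 in spleen 4-8. Here too all islet libraries were above all spleen libraries, by 1.93-fold (0.95 ± 0.13 SE, limma adjusted p = 0.000137).

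Tnfrsf25 was at 5.54, 5.23 and 4.86 in islet 4-8, against 6.96, 6.25 and 6.23 in spleen 4-8. Each islet library was below each spleen library. The means were 5.21 ± 0.34 and 6.48 ± 0.42 (SD, n = 3 each), 2.41-fold lower in islets (-1.27 ± 0.22 SE, limma adjusted p = 0.00148). It was the largest difference of the 6 in this comparison, and the FPKM of the authors' deposited table differed more, by 5.58-fold (Cuffdiff q = 0.001). All 3 calls held whichever of the 6 libraries was left out, with a limma adjusted p of up to 0.00885 for Tnfrsf9, 0.00306 for Tnfrsf1b and 0.0200 for Tnfrsf25.

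The other 3 receptors were not called in 4-8. Tnfrsf4 was at 11.05, 10.51 and 11.08 in islet 4-8, against 10.21, 10.56 and 10.45 in spleen 4-8, so that islet replicate 2 lay among the spleen libraries (0.47 ± 0.16 SE, limma adjusted p = 0.0828). Without islet 4-8 replicate 2 it was 0.66 (limma adjusted p = 0.00209). Cd27 was at 9.01, 9.13 and 9.39 in islet 4-8, against 8.89, 8.93 and 8.98 in spleen 4-8, a difference of 0.24 (limma adjusted p = 0.344) between groups that did not overlap. Tnfrsf18 differed by 0.16, with an interval of -0.11 to 0.43 (limma adjusted p = 0.552).

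In 12-4.4m1 Tregs, 1 of the 6 receptors was called between islets and spleen, Tnfrsf1b, which was higher in islets. Of all genes, 6.81% were called, 4.63% as higher and 2.18% as lower. The authors' deposited DESeq2 table also called Tnfrsf1b alone (4.72% of genes), and their Cuffdiff table called Tnfrsf1b, Tnfrsf9 and Cd27 (14.4% of genes). The groups did not overlap for 1 of the 6, Cd27, against 24.1% of all genes, and the median log2 fold change of the 6 was 0.32, against -0.00 over all genes. Tnfrsf1b was at 9.74, 9.39 and 9.72 in islet 12-4.4m1, against 8.50, 8.78 and 9.40 in spleen 12-4.4m1. The highest spleen library exceeded the lowest islet library. The difference was 1.65-fold (0.72 ± 0.18 SE, limma adjusted p = 0.0120), and the call held when any of 3 libraries was left out. It was lost without islet replicate 1 (limma adjusted p = 0.0519), spleen replicate 1 (0.129) and spleen replicate 2 (0.0542).

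Cd27 was at 7.76, 7.35 and 7.92 in islet 12-4.4m1, against 7.24, 6.91 and 7.30 in spleen 12-4.4m1. Every islet library was above every spleen library, by 0.52 ± 0.17 SE (limma adjusted p = 0.0692). Without islet replicate 2 it was 0.69 (limma adjusted p = 0.0230). Tnfrsf9 was at 8.73, 8.28 and 9.77 in islet 12-4.4m1, against 8.03, 8.10 and 8.93 in spleen 12-4.4m1. In both tissues replicate 3 stood above the other libraries, and the difference of 0.57 ± 0.25 SE was not called (limma adjusted p = 0.197). It was 0.15 without islet replicate 3 (limma adjusted p = 0.727), 0.89 without islet replicate 2 (0.0506) and 0.86 without spleen replicate 3 (0.0523).

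Tnfrsf25 was at 5.65, 6.28 and 5.50 in islet 12-4.4m1, against 6.52, 6.56 and 5.75 in spleen 12-4.4m1 (-0.47 ± 0.22 SE, limma adjusted p = 0.238). The groups overlapped. Tnfrsf4 differed by 0.11, with an interval of -0.22 to 0.44, and Tnfrsf18 by -0.02, with an interval of -0.32 to 0.29. Set side by side, the log2 ratio of the authors' FPKM, islets over spleen, was -2.48 in 4-8 and -0.76 in 12-4.4m1 for Tnfrsf25, 1.29 and 0.81 for Tnfrsf9, 1.30 and 0.89 for Tnfrsf1b, 0.64 and 0.12 for Tnfrsf4, 0.20 and 0.00 for Tnfrsf18, and 0.27 and 0.73 for Cd27. Whether these differences differ between the TCRs was not tested, since the tables were normalized separately. Each group enters 2 of the 4 comparisons, so comparisons that share a group also share its libraries.

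**Figure D3:**
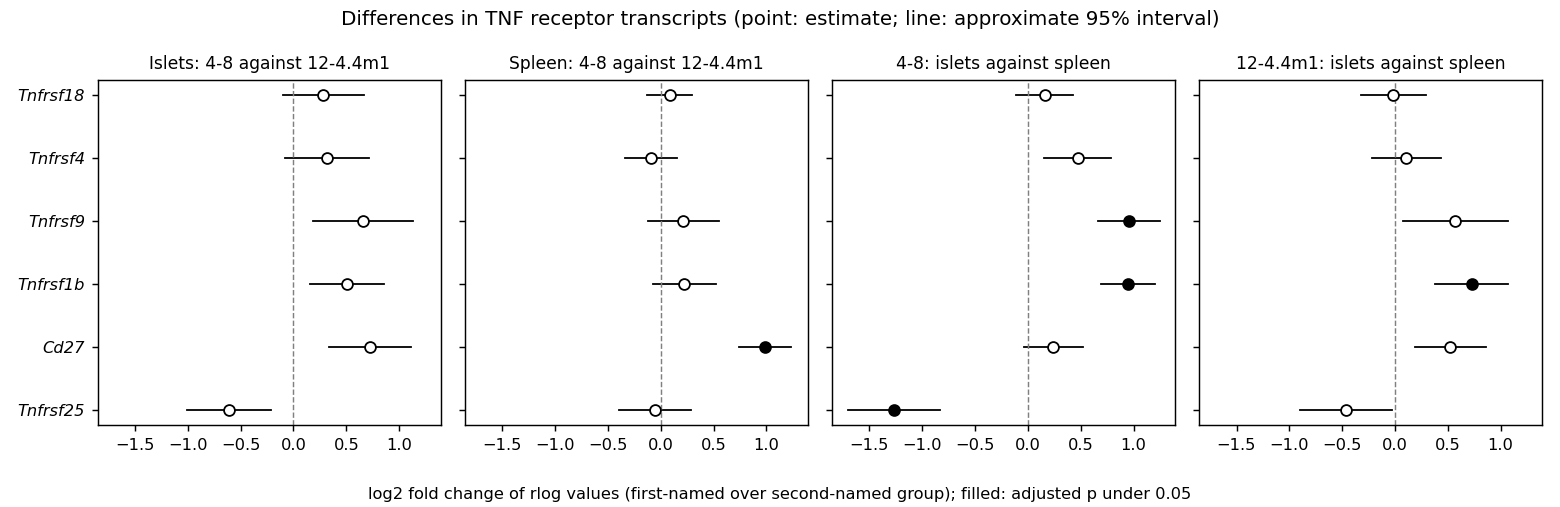
Log2 fold changes of rlog values for the 6 receptors in the 4 comparisons, with points for estimates, horizontal lines for their approximate confidence intervals, and filled points for adjusted p under 0.05 (limma). Filled points are Cd27 between the TCRs in spleen (0.99), Tnfrsf9 (0.95), Tnfrsf1b (0.95) and Tnfrsf25 (-1.27) between tissues in 4-8, and Tnfrsf1b (0.72) between tissues in 12-4.4m1.

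Between the TCRs in spleen, which asks how Tregs of high and low affinity TCRs differ away from the islets, 1 receptor changed: Cd27, higher in 4-8. Over all genes tested, 0.428% were called. Cd27 encodes a receptor that T cells carry before stimulation and lose on full effector differentiation, and its ligand is CD70. It was at 8.77, 8.82 and 8.88 in spleen 4-8, against 7.92, 7.59 and 8.00 in spleen 12-4.4m1. The 4-8 libraries lay within a narrow range above every 12-4.4m1 library. The difference was 1.98-fold (0.99 ± 0.13 SE, limma adjusted p = 6.21e-05) and the sixth largest of 9108 genes by size. The call held whichever of the 6 libraries was left out (limma adjusted p of up to 0.00148), and the authors' deposited DESeq2 and Cuffdiff tables made it too, where they called 0.231% and 1.13% of genes. Xist, which is read from the inactive X chromosome of female cells, ranged from 7.33 to 10.9 over these libraries, and with its level in the fit Cd27 differed by 0.96 (limma adjusted p = 0.00523).

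For replicate 2 of each TCR in spleen, the label names the other TCR's tissue table, while the column names follow the titles. Without both libraries Cd27 differed by 0.87 (limma adjusted p = 0.00442). The other 5 receptors were not called in spleen: Tnfrsf1b differed by 0.22, Tnfrsf9 by 0.21, Tnfrsf18 by 0.09, Tnfrsf25 by -0.05 and Tnfrsf4 by -0.09 (limma adjusted p = 0.771 to 0.971). Their groups overlapped, as for all but 13.3% of genes. The intervals of Tnfrsf18 (-0.13 to 0.30) and Tnfrsf4 (-0.34 to 0.15) were the narrowest of these 5.

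Between the TCRs in islets, 0 of the 6 receptors were called by limma, against 0.365% of all genes. At an unadjusted p under 0.05 there were 4 (Cd27, Tnfrsf1b, Tnfrsf9 and Tnfrsf25), where 557 of the 8212 genes tested had one. The authors' deposited DESeq2 table called 0 of the 6 and 0.353% of genes, and their Cuffdiff table called Cd27 and 0.927% of genes. The groups did not overlap for 3 of the 6, against 11.9% of all genes, and the median log2 fold change of the 6 was 0.41, against -0.00. Cd27 was at 8.36, 8.50 and 8.76 in islet 4-8, against 7.91, 7.48 and 8.06 in islet 12-4.4m1. All 4-8 libraries were above all 12-4.4m1 libraries, by 0.73 ± 0.20 SE (limma adjusted p = 0.15). Of the 15 early response and heat shock genes, all tested, limma called 0 in this comparison, 7 had an unadjusted p under 0.05, and the authors' DESeq2 and Cuffdiff tables called 2 each. Their median was -0.28, with Hspa1a at -0.78 (limma adjusted p = 0.0722), and their part in the receptor differences was not tested. The column of islet 4-8 given last here carries a number that matches no title and was taken as replicate 3 of its group.

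Tnfrsf1b was at 10.28, 10.18 and 10.10 in islet 4-8, against 9.81, 9.45 and 9.78 in islet 12-4.4m1 (0.51 ± 0.18 SE, limma adjusted p = 0.382). Tnfrsf25 was at 4.78, 4.51 and 4.26 in islet 4-8, against 4.98, 5.54 and 4.87 in islet 12-4.4m1 (-0.61 ± 0.20 SE, limma adjusted p = 0.347). Neither pair of groups overlapped. Tnfrsf9 was at 9.63, 9.63 and 9.73 in islet 4-8, against 8.80, 8.34 and 9.86 in islet 12-4.4m1. Replicate 3 of 12-4.4m1 was the highest of the 6 libraries, and the SD was 0.06 in 4-8 and 0.78 in 12-4.4m1. The difference was 0.66 ± 0.24 SE (limma adjusted p = 0.437), and without that library it was 1.09 (limma adjusted p = 0.00345).

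Tnfrsf4 differed with the style of the library titles in this table. The titles of 3 of its libraries, islet 4-8 replicate 2 and islet 12-4.4m1 replicates 1 and 2, hold the word Treg, and those of the other 3 hold an R in its place. What the styles mean is not given in the sources used here. Xist was at 9.39 to 10.5 in the libraries titled Treg, against 6.51 to 7.50 in those titled R. Differences by style therefore cannot be told apart here from differences that go with the Xist level. Tnfrsf4 was at 9.75 to 9.96 in the libraries titled Treg, against 10.51 to 10.56 in those titled R. With the TCR in the same fit, the style difference was -0.65 ± 0.15 SE (limma adjusted p = 0.0212), where 0.731% of all genes were called by style. This fit was chosen after the values were seen. Tnfrsf18 was at 9.62 to 9.99 in the libraries titled Treg, against 10.25 to 10.37 in those titled R (-0.49 ± 0.15 SE, limma adjusted p = 0.115). Tnfrsf9 was at 8.34 to 9.626 in the libraries titled Treg, against 9.633 to 9.86 in those titled R, with a narrow gap. It differed by -0.67 ± 0.19 SE (limma adjusted p = 0.0752). The libraries of the styles did not overlap for these 3 receptors, as for 17.6% of all genes. For Cd27, Tnfrsf1b and Tnfrsf25 they did (adjusted p = 0.668 to 0.891). With title style in the fit the TCR difference was 0.10 for Tnfrsf4, 0.12 for Tnfrsf18, 0.44 for Tnfrsf9 and 0.66 for Cd27, and none was called (limma adjusted p = 0.0809 to 0.936).

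The spleen libraries are all titled R, so in the tissue comparisons style and tissue go together in part. Without the islet libraries titled Treg, 1 islet library of 12-4.4m1 is left, assumed to vary like the others. Its Xist value was 7.77, against 8.33 to 10.4 in the spleen libraries of 12-4.4m1. Then Tnfrsf9 (1.42), Tnfrsf1b (0.83), Cd27 (0.77) and Tnfrsf4 (0.58) were higher in islets (limma adjusted p = 0.000468 to 0.0333), 4 of the 6 in place of 1, where 9.29% of all genes were called in place of 6.81%. This alternative was added after the data were seen.

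Among themselves, the receptors differed in how close their values lay over the libraries. Likeness was taken as the root mean square (RMS) difference of rlog values, each centred on its mean in a table, over the 24 values that the 12 libraries have in the 4 tables, and is given as a description. Tnfrsf18 and Tnfrsf4, the neighbours on chromosome 4, had the smallest difference of any pair of members (0.183 on the log2 scale), followed by Tnfrsf9 and Tnfrsf1b (0.304). The measure is small for any pair of genes that vary little, and Tnfrsf18 and Tnfrsf4 varied least of the 6 (RMS of 0.209 and 0.290 around their own means). Ranks by closeness depended on the direction taken. Tnfrsf4 was number 381 of 7928 genes by closeness to Tnfrsf18, and Tnfrsf18 was number 84 by closeness to Tnfrsf4. By closeness to Tnfrsf9, which varied most (0.512), Tnfrsf1b was number 15 and Tnfrsf4 number 19. Tnfrsf9 was number 266 by closeness to Tnfrsf1b. Tnfrsf25 was the farthest from every other member (0.598 to 0.962).

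Of 7928 genes tested in all 4 tables, those most like Cd27 were the IL-2 receptor beta chain Il2rb, the adhesion receptor Cd2 and Pglyrp1, a peptidoglycan recognition protein (RMS 0.192 to 0.222). These genes were picked for closeness to Cd27 over the same values. Differences like those of Cd27 were therefore built into the choice, and their p-values are no separate support. Il2rb was higher in 4-8 than in 12-4.4m1 in spleen (0.57, limma adjusted p = 0.0391), as was Pglyrp1 (0.71, adjusted p = 0.00465). Cd2 was called in no comparison (0.43 between the TCRs in spleen and 0.50 in islets, limma adjusted p = 0.114 and 0.539). Within islets, Pglyrp1 was also higher in 4-8 (1.04, limma adjusted p = 0.00874). Between tissues, Il2rb was higher in islets in 12-4.4m1 (0.66, limma adjusted p = 0.00575) and not called in 4-8 (0.46, adjusted p = 0.0572). Pglyrp1 was called in neither (0.22 in 4-8 and -0.09 in 12-4.4m1). Most like Tnfrsf1b were the protein kinase C gene Prkch, the RNA-binding regulator Zc3h12d and the tyrosine phosphatase Ptpn22 (RMS 0.177 to 0.189). Most like Tnfrsf9 were Ehd1, an endocytic trafficking protein, Ndufa8, a subunit of respiratory complex I, and Gdpd5 (0.250 to 0.269). Most like Tnfrsf4 was Nfkbia, an NF-kB inhibitor, with Lsm4 and Nme2 (0.126 to 0.135). Tnfrsf18 was nearest to the proteasome subunits Psmc2 and Psmb9 and to the myosin light chain Myl6 (0.0766 to 0.106), and Tnfrsf25 to the kinesin Kif1b, Eftud1 and Zfp386 (0.216 to 0.236).

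Ligands of these receptors were also read in the Tregs. Tnfsf9, the ligand of 4-1BB, was higher in islets of 4-8, as its receptor was: its rlog value was 6.59 ± 0.35 in islet 4-8 and 5.35 ± 0.22 in spleen 4-8 (SD, n = 3 each), 2.37-fold higher (1.24 ± 0.20 SE, limma adjusted p = 0.000639). In 12-4.4m1 it was 5.30 ± 0.17 in islets and 4.68 ± 0.21 in spleen (0.63 ± 0.19 SE, limma adjusted p = 0.0519). Its FPKM was 81.1 to 83.5 in islet 4-8, 44.6 to 46.6 in islet 12-4.4m1, 18.6 to 19.4 in spleen 4-8 and 15.6 to 16.2 in spleen 12-4.4m1. Cd70, the ligand of CD27, was below the filter and at 8.14 to 8.43 FPKM in islet 4-8, 17.7 to 18.5 in islet 12-4.4m1, 3.42 to 3.57 in spleen 4-8 and 8.91 to 9.26 in spleen 12-4.4m1. Its level was lower in 4-8 than in 12-4.4m1 in both tissues, where that of Cd27 was higher, a pattern with no test. Tnfsf18, the ligand of GITR, was listed at 0 in 3 groups and at no more than 0.202 FPKM in spleen 12-4.4m1, and Tnfsf4, the ligand of OX40, did not exceed 3.59 FPKM.

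Over the list of 17 ligands, 9 were tested between tissues in 4-8 and 1 was higher (5.14% of all genes), and 9 were tested in 12-4.4m1 and 0 were called by limma (3 at an unadjusted p under 0.05, 1 by each of the authors' tools). In spleen, 10 were tested between the TCRs. Fasl, the death ligand of FAS, was higher in 4-8 (0.66 ± 0.13 SE, limma adjusted p = 0.0128), and Tnfsf8, the ligand of CD30, was lower (-0.63 ± 0.14 SE, adjusted p = 0.0394), where 0.428% of all genes were called. The authors' DESeq2 table called 0 of the 17 ligands there and their Cuffdiff table called 1 of them. In islets, 9 were tested and 0 called (4 at an unadjusted p under 0.05, 0 by the authors' tools), with Tnfsf8 at -0.75 (limma adjusted p = 0.215). Of the other receptors of the superfamily, 8 or 9 of 22 were tested in each comparison and 0 were called by limma or by the authors' tools. At an unadjusted p under 0.05 there were 2 in each comparison but that of the TCRs in islets, which had 0. Over all genes tested, 1998 of 8981 had such a p between tissues in 4-8 and 1709 of 8438 in 12-4.4m1. Between the TCRs, 722 of 9108 had one in spleen and 557 of 8212 in islets. Among the other receptors, the smallest p belonged to Fas between the TCRs in islets (-0.19, adjusted p = 0.905) and to Tnfrsf8, which encodes CD30, in spleen (-0.41, adjusted p = 0.369). Between the tissues it belonged to Tnfrsf10b, a receptor of the death ligand TRAIL, at 0.46 in 4-8 (limma adjusted p = 0.144) and 0.38 in 12-4.4m1 (adjusted p = 0.221).

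Downstream of the receptors, limma called Tnfaip3, Traf4, Nfkbid, Nfkbiz and Bcl3 higher in islets of both TCRs. Of 16 receptor-proximal adaptors, all tested, 2 were higher and 0 lower in islets in 4-8 and 2 and 0 in 12-4.4m1, where 5.14% and 4.63% of all genes were higher. Both times these were Tnfaip3, which encodes the ubiquitin-editing inhibitor A20, and Traf4. The authors' DESeq2 table called 1 of the 16 adaptors in 4-8 (6.76% of genes) and 2 in 12-4.4m1 (4.72%). Their Cuffdiff table called 3 (15.6% of genes) and 4 (14.4%). Tnfaip3 was 10.32 ± 0.06 in islet 4-8 and 8.15 ± 0.06 in spleen 4-8 (SD, n = 3 each), 4.51-fold higher (2.17 ± 0.13 SE, limma adjusted p = 8.38e-09). In 12-4.4m1 it was 10.13 ± 0.18 in islet and 7.84 ± 0.11 in spleen libraries (SD, n = 3 each), 4.90-fold higher (2.29 ± 0.14 SE, limma adjusted p = 2.56e-11). The list as a whole did not share this: its median was -0.05 in 4-8 and 0.03 in 12-4.4m1.

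Of 14 NF-kB subunits and inhibitors, all tested, 4 were higher and 0 lower in islets for each TCR (5.14% of all genes were higher in 4-8 and 4.63% in 12-4.4m1), with medians of 0.26 in 4-8 and 0.23 in 12-4.4m1. In 4-8 these were the nuclear regulators Nfkbid (1.35), Nfkbiz (1.0) and Bcl3 (0.67) and the cytoplasmic inhibitor Nfkbib (0.87, limma adjusted p = 3.66e-05 to 0.0233). In 12-4.4m1 they were Nfkbid (1.78), Nfkbiz (1.4), Bcl3 (1.03) and Rel (0.71), the c-Rel subunit (limma adjusted p = 9.19e-08 to 0.0145). The authors' DESeq2 table called 6 of the 14 in 4-8 (6.76% of genes) and 4 in 12-4.4m1 (4.72%). Their Cuffdiff table called 6 (15.6% of genes) and 5 (14.4%). The inhibitor genes Nfkbia (0.51 in 4-8 and 0.29 in 12-4.4m1) and Nfkbie (0.10 and -0.24), named after their values were seen, were not called (limma adjusted p = 0.0700 to 0.783). Of 7 survival genes tested, 2 were higher and 0 lower in islets in 4-8 (5.14% of all genes were higher), Bcl2a1d (1.1, limma adjusted p = 0.00112) and Bcl2a1b (0.66, adjusted p = 0.0139). These are near-identical copies of 1 gene, between which reads can be split. In 12-4.4m1 0 were called by limma (2 at an unadjusted p under 0.05, 0 by DESeq2, 1 by Cuffdiff), with Bcl2a1b at 0.50 (limma adjusted p = 0.0906). Over all genes tested there, 1709 of 8438 had an unadjusted p under 0.05. Between the TCRs, 0 of these adaptor, NF-kB and survival genes were called by limma, DESeq2 or Cuffdiff in either tissue. At an unadjusted p under 0.05 there were 0 in islets, and 2 adaptors, 1 NF-kB gene and 0 survival genes in spleen. Over all genes tested, 557 of 8212 had such a p in islets and 722 of 9108 in spleen. The smallest p of each list was that of Siva1 (0.44), Nfkbib (0.37) and Bcl2a1d (0.37) in islets (limma adjusted p = 0.748 to 0.795), and of Map3k14 (0.26), which encodes the kinase NIK, Ikbkg (-0.35) and Bcl2 (0.35) in spleen (limma adjusted p = 0.454 to 0.711).

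**Figure D4:**
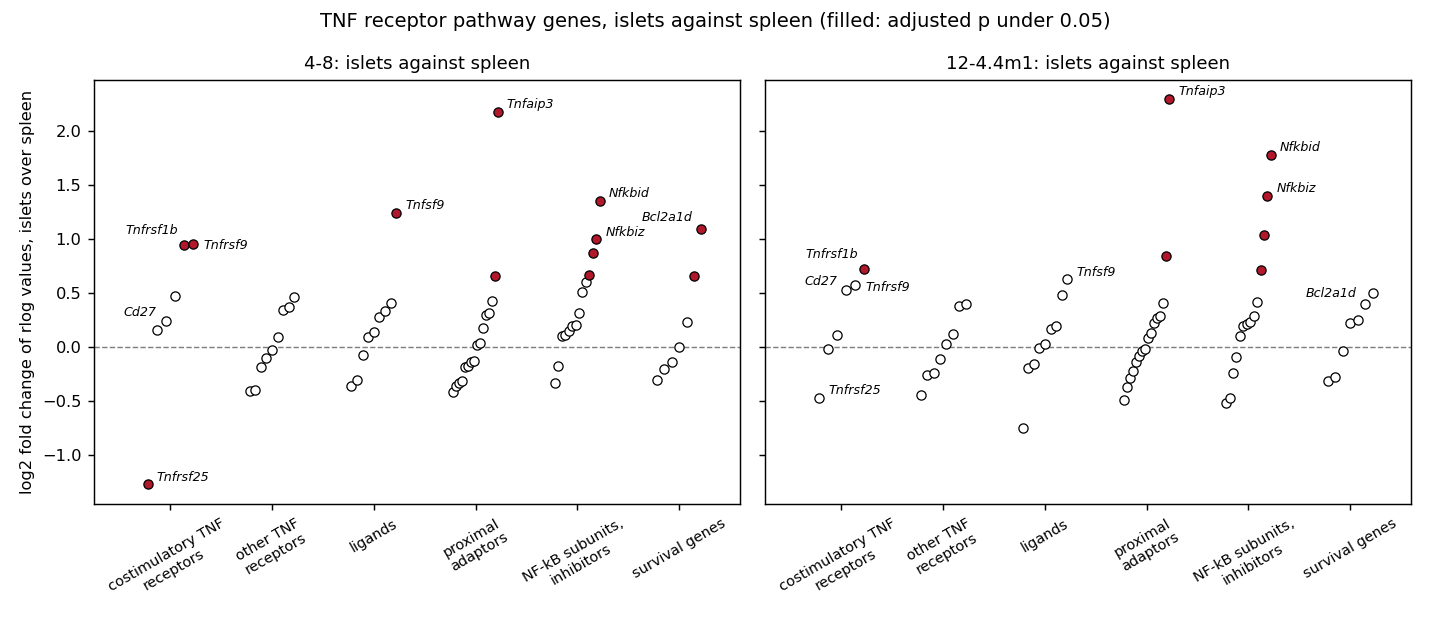
Log2 fold changes of rlog values, islets over spleen, of the tested genes of 6 lists in 4-8 (left) and 12-4.4m1 (right), 1 point per gene in order of size, filled where the limma adjusted p is under 0.05. Tnfaip3 is at the top in both panels (2.17 and 2.29), and Tnfrsf25 (-1.27) is the only filled point below 0.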

How the data were processed

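RNA was sequenced from sorted Tregs of 4 groups of 3 libraries. The submitters' processing notes list, with no role or order, the authors' tools STAR 1.1.0, TopHat 1.0.0, DESeq2 1.1.0, DESeq and Cufflinks and the build mm10 (GRCm38). Per the file headers, the authors deposited rlog values on a log2 scale per library. The mean normalized count of each gene in the authors' DESeq2 tables is a signal after size factor normalization, with their p-value. The SE and statistic in the same tables are a score as deposited. Group FPKM and q-values come from the authors' Cuffdiff tables. The authors' fold changes run 12-4.4m1 over 4-8 and spleen over islets and were turned round here.

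From these, limma 3.58.1 (eBayes with trend, not robust) in R 4.3.3 was fitted separately to each table, over genes with a mean normalized count of at least 10, after it was tested on simulated data. Rows of 2 duplicated symbols, 4 in all, were left out. The main fit has no block by replicate number, because no label ties a number to a mouse, litter or day. With 3 libraries a side, exact permutation p-values are at least 0.1 and were not used. The genes named were the 6 receptors, then up to 4 called genes of each list by p, or the 1 with the smallest p where none was called, and the 3 genes nearest to each receptor by RMS (predicted genes left out). Marker lists are given by their levels. The receptors and lists were chosen with earlier results of these data known. Alternatives were other filters, centring, moderation, a block by number, title style or Xist in the fit, libraries left out and the authors' own tests. Library depth and strand use: not given in the sources used here.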

Additional observations from a re-analysis of the deposited data

How the results depend on the processing

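The calls of Tnfrsf9, Tnfrsf1b and Tnfrsf25 between tissues in 4-8 and of Cd27 between the TCRs in spleen held under every alternative run. With 1 library left out, the number of receptors called ranged from 0 to 1 between the TCRs in islets, 3 to 4 between tissues in 4-8 and 0 to 2 in 12-4.4m1, and stayed at 1 in spleen. With 1 library left out, the log2 fold change ranged from 0.33 to 1.09 for Tnfrsf9 between the TCRs in islets and from 0.37 to 0.66 for Tnfrsf4 between tissues in 4-8. In 12-4.4m1 it ranged between tissues from 0.40 to 0.69 for Cd27, 0.53 to 0.98 for Tnfrsf1b, 0.15 to 0.89 for Tnfrsf9, -0.73 to -0.31 for Tnfrsf25, -0.23 to 0.13 for Tnfrsf18 and -0.13 to 0.25 for Tnfrsf4. Between the TCRs in spleen it ranged from 0.051 to 0.50 for Tnfrsf9 and 0.022 to 0.48 for Tnfrsf1b, and from -0.0117 to 0.15 for Tnfrsf18, -0.18 to 0.0520 for Tnfrsf4 and -0.28 to 0.0736 for Tnfrsf25, values near 0 whose sign is not settled. Other signs that turned in spleen were Tnfrsf4 at 0.12 with Xist in the fit, Tnfrsf18 at -0.0346 and Tnfrsf25 at 0.18 without both libraries numbered 2, and Tnfrsf25 at 0.00597 by the authors' Cuffdiff table.

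In the 12-4.4m1 tissue comparison, 2 receptors were called at a minimum mean count of 50 (Cd27, 0.52), 3 by the Cuffdiff table (Cd27 0.73, Tnfrsf9 0.81, and Tnfrsf18 turned to 0.00231) and 4 with the libraries titled R alone, an alternative chosen after seeing the data (Cd27 0.77, Tnfrsf9 1.42, Tnfrsf4 0.58, and Tnfrsf18 turned to 0.42). Cuffdiff also called Cd27 between the TCRs in islets (0.92, 1 receptor called) and Tnfrsf4 between tissues in 4-8 (0.64). The replicate block raised the receptors called in 12-4.4m1 to 3 (Cd27 0.52, Tnfrsf9 0.57) and the genes called in spleen to 78. The correlation of same-numbered libraries' deviations was over 0.1 for all 3 pairs in no table (-0.118 to 0.209, and 0.0748 to 0.12 in the spleen table). Deviations from means of 3 libraries cannot decide whether the numbers pair the samples. The main fit leaves the block out because no label ties a number to a mouse, litter or day. The block changed no other receptor's call.

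The count of all genes called was 30 between the TCRs in islets and 9 to 44 with 1 library left out (9 without 12-4.4m1 replicate 1, 11 without replicate 2), 15 at a minimum of 50, 52 with title style and 57 by Cuffdiff. In spleen it was 39, and 14 to 56 with 1 library left out, 17 without a trend, 19 with Xist, 11 without both libraries numbered 2, 21 by DESeq2 and 84 by Cuffdiff. Between tissues it was 717 in 4-8 (306 to 1211 with 1 left out, 1160 by Cuffdiff) and 575 in 12-4.4m1 (288 to 610, and 938 by Cuffdiff). The cause of these changes was not tested. Tnfrsf25 has the fewest counts of the receptors, and the rlog transform shrinks differences most at low counts.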
